A study of Homo sapiens with 12 samples.

Results

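The AP-1 genes described here are the 3 JUN genes, the 4 FOS genes and ATF3, 8 of the 19580 genes in the deposited footprint table. They were chosen by name and identifier, as a family selected on earlier results from the same table, in which JUN had one of the largest differences between cells given both treatments and untreated cells. The values that involve 4SU+UVA libraries are therefore given as a description, with standard errors and with no p-value. Adjusted p-values are given for UVA alone and for 4SU alone, and these too were known when the family was chosen.

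Ribosome profiling counts the mRNA fragments that ribosomes shield from nuclease, so the value of a gene follows both how much of its mRNA is present and how densely ribosomes cover it. The cells were HAP1, a wild-type human line with a near-haploid genome that descends from KBM-7 leukaemia cells. In bulk lysates such as these, a change in every cell and a change in some of the cells cannot be told apart. There were 4 groups of 3 biological replicates, 12 libraries in all. The first group received 5 uM 4-thiouridine (4SU), a uridine analogue that enters new RNA, for 18 h and then UVA light at 6 kJ per square metre, and was harvested after 30 min. Another received the UVA alone, another the 4SU alone, and the last was untreated. UVA excites 4SU in RNA and joins it to protein, so the combined treatment is the one that makes RNA-protein crosslinks. Library depth ran from 1899854 to 5832366 reads, and the shallowest library was 4SU+UVA replicate 2. Replicates of a group correlated across genes at r of 0.982 to 0.991. Density is in RPKM, reads scaled by transcript length (in kilobases) and by library total, and log2 changes are differences of mean log2(RPKM + 0.5). The added 0.5 draws the changes of low genes toward 0.

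AP-1 is a transcription factor made of a pair of basic leucine zipper proteins. JUN proteins pair with each other, with FOS proteins or with ATF proteins, whereas FOS proteins need a JUN partner to bind DNA. Many of the genes are immediate early genes, switched on by growth factors and by stress kinases such as JNK, p38 and ERK without new protein synthesis, and their mRNAs are short-lived. JUN and ATF3 are textbook responders to ultraviolet light and to ribosome stress, and JUN protein is known to act on the promoter of its own gene.

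The family lies on several chromosomes (RefSeq gene positions, GRCh38.p14). JUN (ENSG00000177606.8) is at chr1:58780791-58784047, JUNB (ENSG00000171223.6) at chr19:12791486-12793315 and JUND (ENSG00000130522.6) at chr19:18279694-18281622. For these 3 genes the transcript length recovered from the table equals the whole gene span, 3257, 1830 and 1929 nt, as in genes without introns. FOS (ENSG00000170345.10) is at chr14:75278828-75282230, FOSB (ENSG00000125740.14) at chr19:45467996-45475179, FOSL1 (ENSG00000175592.9) at chr11:65892049-65900545 and FOSL2 (ENSG00000075426.12) at chr2:28392858-28417317, with transcripts of 2104, 3667, 1200 and 5829 nt. ATF3 (ENSG00000162772.17) spans chr1:212565407-212620777, and the 1 transcript that stands for it in the table is 482 nt long. Levels per length depend on which transcript was listed.

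Promoters are shown for the 4 members with the largest differences and for FOSL2, whose groups overlapped, as RefSeq sequence (GRCh38.p14) from 250 bases before to 50 bases after the start site, on the gene's own strand. Positions count the first transcribed base as 1 and the base before it as -1. Capitals mark matches on either strand to TGANTCA (the classic AP-1 site), TGACNTCA (which includes the cyclic AMP response element and the JUN site), TTACNTCA (the other known kind of JUN promoter site) and TGACGT (a partial cyclic AMP response element, which overlaps TGACNTCA where N is G). The motifs were chosen with these sequences in view.
JUN, chr1:58783998-58784297, minus strand: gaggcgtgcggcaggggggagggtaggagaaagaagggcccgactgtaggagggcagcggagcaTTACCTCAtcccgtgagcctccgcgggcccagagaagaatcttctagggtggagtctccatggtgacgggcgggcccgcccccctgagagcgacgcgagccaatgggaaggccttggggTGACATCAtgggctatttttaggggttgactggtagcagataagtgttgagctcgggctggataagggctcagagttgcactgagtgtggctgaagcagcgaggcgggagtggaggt
FOS, chr14:75278578-75278877, plus strand: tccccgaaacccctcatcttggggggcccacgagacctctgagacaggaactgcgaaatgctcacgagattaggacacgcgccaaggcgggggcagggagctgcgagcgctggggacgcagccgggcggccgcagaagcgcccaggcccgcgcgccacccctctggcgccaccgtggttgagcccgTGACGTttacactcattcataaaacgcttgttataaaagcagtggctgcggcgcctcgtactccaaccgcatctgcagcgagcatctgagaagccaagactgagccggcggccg
JUND, chr19:18281573-18281872, minus strand: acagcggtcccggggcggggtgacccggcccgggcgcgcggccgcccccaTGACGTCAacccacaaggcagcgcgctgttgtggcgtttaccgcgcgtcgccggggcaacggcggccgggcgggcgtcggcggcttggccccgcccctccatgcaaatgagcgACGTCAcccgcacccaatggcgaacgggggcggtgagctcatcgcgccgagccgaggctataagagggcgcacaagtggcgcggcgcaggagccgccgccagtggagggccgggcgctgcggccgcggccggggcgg
ATF3, chr1:212565157-212565456, plus strand: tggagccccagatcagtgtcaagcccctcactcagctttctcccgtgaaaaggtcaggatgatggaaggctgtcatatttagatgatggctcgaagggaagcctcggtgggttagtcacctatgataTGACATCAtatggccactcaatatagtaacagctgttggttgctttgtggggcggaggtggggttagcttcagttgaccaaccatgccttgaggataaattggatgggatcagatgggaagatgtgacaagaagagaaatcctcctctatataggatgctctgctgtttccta
FOSL2, chr2:28392608-28392907, plus strand: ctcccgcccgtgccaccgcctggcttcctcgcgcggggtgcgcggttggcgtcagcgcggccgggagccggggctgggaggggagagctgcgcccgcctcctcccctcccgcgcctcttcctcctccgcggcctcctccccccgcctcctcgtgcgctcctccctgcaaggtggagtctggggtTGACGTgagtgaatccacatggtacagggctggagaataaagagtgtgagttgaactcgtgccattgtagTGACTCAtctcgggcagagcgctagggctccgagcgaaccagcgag

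JUN and ATF3 share the match TGACATCA, at -67 to -60 in JUN and at -123 to -116 in ATF3, and JUN also holds TTACCTCA at -186 to -179. ATF3 has another RefSeq start, whose window held none of the motifs marked here. Which start these cells use was not tested. JUND holds TGACGTCA at -200 to -193 and the reverse of TGACGT at -87 to -82. FOS has TGACGT at -64 to -59 and none of the longer motifs. FOSL2, whose footprints were few in all groups, has TGACGT at -66 to -61 and holds the classic TGACTCA just inside the transcript, at 5 to 11. Of 35116 promoter windows in the same RefSeq table, 7.71% hold TGANTCA, 7.72% TGACNTCA, 2.57% TTACNTCA and 7.98% TGACGT. A CArG box, the site of serum response factor, is in 1.29% of them. It had no match in the windows of the 7 of 8 members listed there. Sequence outside these windows, such as that farther upstream, was not searched. The absence of a match therefore does not show that any member lacks a CArG box. A match is a string of letters and says nothing of binding in these cells.

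JUN itself stood far above its other groups in cells given both treatments. JUN had 251, 379 and 418 RPKM with 4SU+UVA. With UVA alone it had 12.3, 9.96 and 9.25 RPKM, with 4SU alone 5.77, 7.04 and 5.31 RPKM, and in untreated cells 6.49, 5.00 and 6.63 RPKM. All 3 4SU+UVA libraries stood far above the other 9, the UVA libraries all lay above both the 4SU and the untreated ones, and the 4SU and untreated libraries overlapped each other. Means were 349 ± 87.4 RPKM with 4SU+UVA, against 6.04 ± 0.903 RPKM in untreated cells (SD, n = 3 each), a log2 change of 5.72 (SE 0.17). That was the 2nd highest of 11510 genes tested. Ranked by mean density among those genes, JUN was at position 269 with 4SU+UVA and at 7223 in untreated cells. Its reads numbered 2346 to 4512 per 4SU+UVA library and 80 to 126 per untreated library.

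JUND, the JUN protein usually regarded as constitutive, followed at a smaller size. It had 54.2, 72.9 and 85.5 RPKM with 4SU+UVA. The values were 21.6, 18.9 and 18.7 RPKM with UVA, 23.9, 25.3 and 20.2 RPKM with 4SU, and 13.8, 14.1 and 14.3 RPKM in untreated cells. Untreated libraries were the lowest without exception, 4SU+UVA libraries were the highest, and the 2 single treatments overlapped in between. The log2 change of 4SU+UVA from untreated was 2.26 (SE 0.13), 24th of the genes tested.

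JUNB, which can oppose JUN as a weaker activator, differed least among the members that passed the filter. It had 29.3, 26.7 and 36.8 RPKM with 4SU+UVA, 21.5, 19.6 and 21.4 RPKM with UVA, 20.5, 17.1 and 22.8 RPKM with 4SU, and 22.2, 21.5 and 21.9 RPKM in untreated cells. The 4SU+UVA libraries lay above all others by a narrow margin. The log2 change from untreated was 0.48 (SE 0.12), of which 0.24 lay above the median gene, which itself moved by 0.23 with the deposited scaling. Centring each library on its median brought the change of JUNB down to 0.31. At 3590th of 11510, JUNB sits well inside the bulk of all genes.

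**Figure D1:**
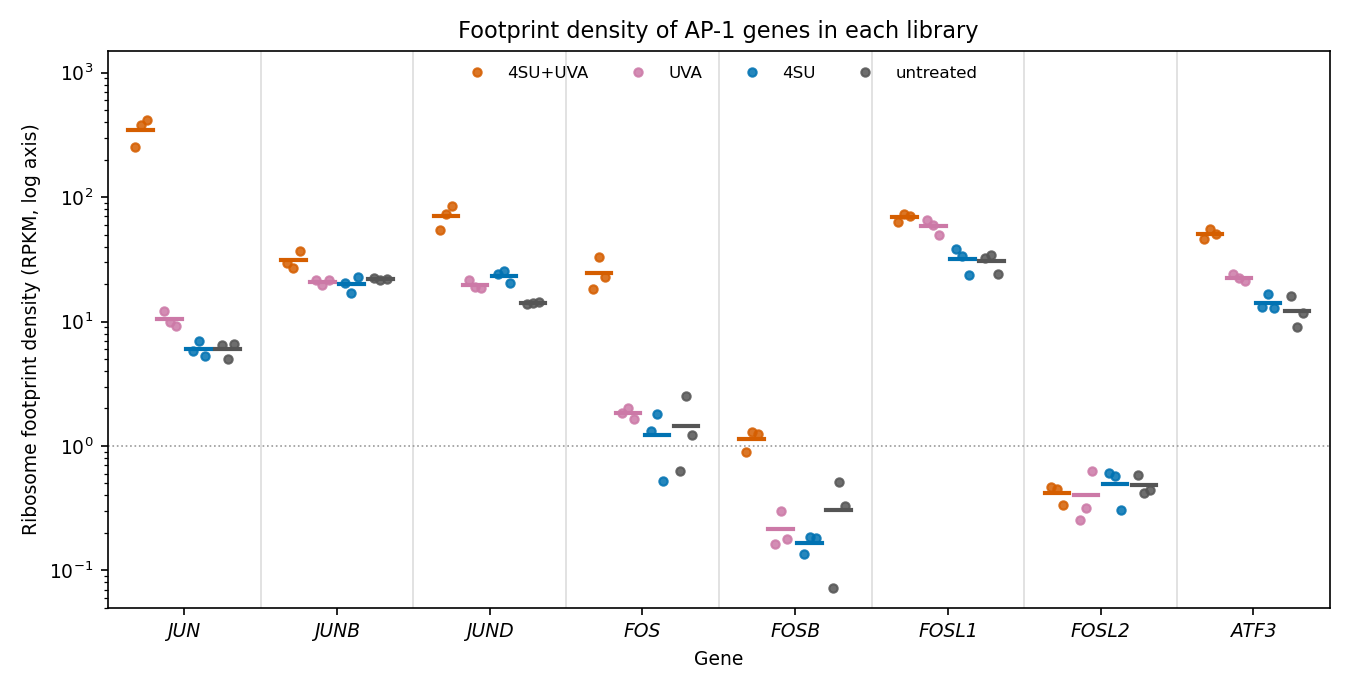
Ribosome footprint density (RPKM, log axis) of the 8 AP-1 genes in all 12 libraries, with 4SU+UVA, UVA, 4SU and untreated cells from left to right within each gene. Points are libraries, bars are group means of 3 libraries and the dotted line marks 1 RPKM. JUN lies at 251 to 418 RPKM with 4SU+UVA and at or under 12.3 RPKM elsewhere, while FOSL1 is nearly as high with UVA alone as with both treatments.

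FOS, the partner with which JUN forms the classic AP-1 pair, was scarce in 3 of the groups. FOS had 18.1, 33.0 and 22.9 RPKM with 4SU+UVA. It had 1.84, 2.01 and 1.65 RPKM with UVA, 1.31, 1.82 and 0.526 RPKM with 4SU, and 0.628, 2.52 and 1.22 RPKM in untreated cells. Only the 4SU+UVA libraries stood clear, and the other groups overlapped. Untreated values rest on 5, 28 and 15 reads, and the 4SU+UVA values on 211, 132 and 147. On the log2 scale the change was 3.76 (SE 0.34), the 4th highest of the genes tested, and the ratio of mean RPKM was 17.0. In reads as a share of the library the ratio was 14.5 (exact 95% interval 10.8 to 20.0), where the interval reflects read counting alone, as PCR copies are not independent molecules. Both ratios rest on untreated replicate 2, which holds 28 of the 48 untreated reads. Without it, an alternative chosen after seeing the data, the ratio of mean RPKM was 26.7 and the read ratio 22.5 (exact 95% interval 14.4 to 37.2).

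FOSB, a close relative of FOS that is also an immediate early gene, was near the limit of detection. It had 18, 9 and 14 reads with 4SU+UVA, 2, 6 and 3 reads with UVA, 2, 3 and 3 reads with 4SU, and 1, 10 and 7 reads in untreated cells. In density this was 0.888, 1.29 and 1.25 RPKM with 4SU+UVA and 0.0720, 0.517 and 0.327 RPKM in untreated cells. The 4SU+UVA densities lay above those of all 9 other libraries. The read ratio between these groups was 3.24 (exact 95% interval 1.82 to 5.99). As for FOS, the interval reflects read counting alone and leaves out the spread between libraries. With single libraries of these groups left out, an alternative chosen after seeing the data, the ratio ran from 2.56 (without untreated replicate 1) to 4.71 (without untreated replicate 2). FOSB failed the filter of 1 RPKM in at least 3 libraries and so was not tested.

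FOSL1, a FOS relative without the strong activating domain, had densities with UVA alone close to those with the combined treatment. It had 62.6, 73.7 and 70.1 RPKM with 4SU+UVA, 66.0, 59.9 and 49.5 RPKM with UVA, 38.001, 33.7 and 23.8 RPKM with 4SU, and 32.6, 34.4 and 24.3 RPKM in untreated cells. The libraries of the 2 irradiated groups overlapped each other and lay above all non-irradiated ones. Against UVA alone the log2 change of 4SU+UVA was 0.24 (SE 0.16), and against untreated cells it was 1.18 (SE 0.16).

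FOSL2, the remaining FOS relative, showed no such pattern. It had 0.466, 0.451 and 0.338 RPKM with 4SU+UVA, 0.255, 0.316 and 0.632 RPKM with UVA, 0.602, 0.578 and 0.304 RPKM with 4SU, and 0.589, 0.423 and 0.441 RPKM in untreated cells. All groups overlapped. The read ratio of 4SU+UVA to untreated cells was 0.902 (exact 95% interval 0.530 to 1.51, from read counting alone). A moderate change in either direction was therefore not detectable at this depth. No library reached 1 RPKM, and FOSL2 was not tested.

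ATF3, a stress-induced member of the ATF family that pairs with JUN and often represses, was higher in both irradiated groups. It had 46.2, 55.7 and 50.4 RPKM with 4SU+UVA, 24.1, 22.2 and 21.1 RPKM with UVA, 13.0, 16.8 and 12.9 RPKM with 4SU, and 15.9, 9.04 and 11.7 RPKM in untreated cells. The 4SU+UVA libraries lay above the UVA ones, which lay above all others. The log2 change from untreated was 2.04 (SE 0.16), 35th of the genes tested, and that from UVA alone was 1.16 (SE 0.16). Its values rest on 51 to 123 reads per 4SU+UVA library and 23 to 33 per untreated library.

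All 6 members that passed the filter were past an adjusted p of 0.05 in limma and higher with 4SU+UVA than in untreated cells, where 40.6% of all genes were called higher (27.0% under median centring and 26.2% under quantile normalisation). The same 6 had no overlap between the 2 groups in that direction, as did 43.6% of all genes. Their median log2 change was 2.15, beside 0.23 over all 11510 genes. Each of the 6 reached 1 RPKM in at least 7 of the 9 libraries outside 4SU+UVA, so none was kept by its 4SU+UVA values alone. The call rule is given here for these 6 as a count. The choice of the family had used this difference, so the counts describe the members and are not a test of them.

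Against 4SU alone, which shares its 4SU+UVA libraries with the previous comparison, the order of the members changed little. Log2 changes were 5.72 (SE 0.17) for JUN, 3.91 (SE 0.34) for FOS, 1.81 (SE 0.16) for ATF3, 1.58 (SE 0.13) for JUND, 1.12 (SE 0.16) for FOSL1 and 0.61 (SE 0.12) for JUNB. All 6 were called higher, beside 25.0% of all genes. Against UVA alone 5 of 6 were called higher, all but FOSL1, beside 34.7% of all genes. JUN differed there by 4.97 (SE 0.17), FOS by 3.39 (SE 0.34), JUND by 1.80 (SE 0.13) and JUNB by 0.55 (SE 0.12). These counts of calls also rest on the 4SU+UVA libraries that the choice of the family had used, so they are a description.

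With UVA by itself, FOSL1 and ATF3 were called higher than in untreated cells. FOSL1 averaged 58.5 ± 8.35 RPKM with UVA and 30.4 ± 5.40 RPKM in untreated cells (SD, n = 3 each), a log2 change of 0.94 (SE 0.16, limma adjusted p = 0.0096), with all 3 UVA libraries above all untreated ones. ATF3 averaged 22.5 ± 1.501 RPKM with UVA and 12.2 ± 3.45 RPKM in untreated cells, or 0.89 (SE 0.16, limma adjusted p = 0.013), again with no overlap. They were 2 of the 6 members tested, where 0.278% of all genes were called higher (0.0956% to 0.394% over the 20 alternatives). The other 4 did not pass, with 0.75 (SE 0.17, limma adjusted p = 0.087) for JUN, 0.47 (SE 0.13, limma adjusted p = 0.24) for JUND, 0.37 (SE 0.34, limma adjusted p = 0.85) for FOS and -0.07 (SE 0.12, limma adjusted p = 0.94) for JUNB. JUN and JUND nevertheless had no overlap between groups, which makes 4 of 6 members without overlap on the higher side, beside 12.8% of all genes. JUNB had none on the lower side, by a narrow margin, beside 3.93%.

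Both UVA calls were close to the threshold. FOSL1 lost its call in 5 of 20 alternatives, namely without the filter on low values (limma adjusted p = 0.056), without the variance trend (0.082), and without UVA replicate 1 (0.067), UVA replicate 2 (0.057) or untreated replicate 3 (0.058). ATF3 lost its call in 7 of 20, namely without the filter (limma adjusted p = 0.062), without the trend (0.083), under quantile normalisation (0.051), and without UVA replicate 1 (0.080), UVA replicate 2 (0.061), untreated replicate 2 (0.056) or untreated replicate 3 (0.062). JUN, in turn, passed when 4SU+UVA replicate 1 was left out of the shared model (limma adjusted p = 0.020), with an unchanged 0.75. Over its 20 alternatives that p ran from 0.020 to 0.39.

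With 4SU and no light JUND was higher than in untreated cells, the one member called in that comparison. JUND averaged 23.1 ± 2.62 RPKM with 4SU and 14.1 ± 0.243 RPKM in untreated cells (SD, n = 3 each), a log2 change of 0.69 (SE 0.13, limma adjusted p = 0.0051). All 3 4SU libraries lay above all untreated ones, and the call held in all 20 alternatives, with adjusted p of 0.0018 to 0.030. That is 1 of 6 members, beside 11.3% of all genes called higher, and 1 of 6 without overlap, beside 25.1%. The share of all genes called higher depended on the setting, at 5.56% under median centring, 5.89% under quantile normalisation, 6.07% without the filter and 15.1% with the filter at 5 RPKM. It was 5.06% and 5.52% without 4SU replicates 1 and 2, and 6.27% without untreated replicate 2 or 3. For JUN the means were 6.04 ± 0.897 RPKM with 4SU and 6.04 ± 0.903 RPKM in untreated cells, a change of 0.00 (SE 0.17, limma adjusted p = 1). Changes of the remaining 4 did not pass, at 0.23 for ATF3, 0.05 for FOSL1, -0.13 for JUNB and -0.15 for FOS, each with an SE of 0.12 to 0.34 (limma adjusted p = 0.35 to 0.86).

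**Figure D2:**
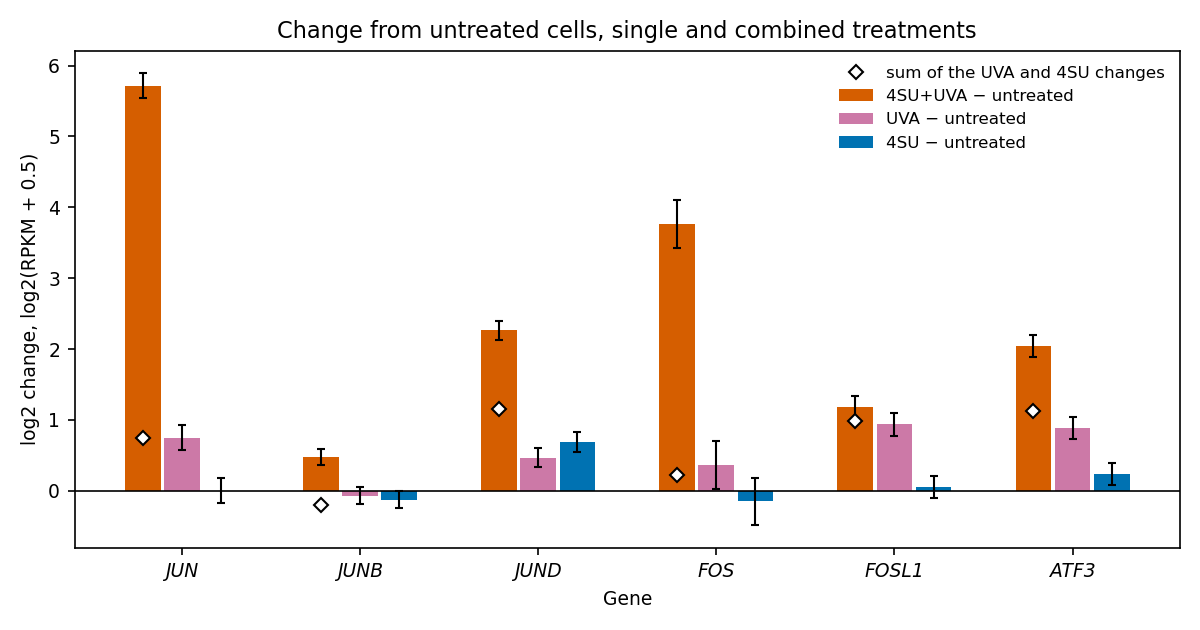
Log2 change from untreated cells of the 6 AP-1 genes tested, as bars for 4SU+UVA, UVA and 4SU with standard errors from the model over 12 libraries (3 per group). Open diamonds mark the sum of the UVA and the 4SU changes. For JUN and FOS the bar of the combined treatment reaches 5.72 and 3.76 with diamonds at 0.75 and 0.22, whereas for FOSL1 bar and diamond lie at 1.18 and 0.99.

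How the combination compared with the sum of its parts separated the members. For JUN the single changes added up to 0.75 on the log2 scale, and the combined change exceeded that sum by 4.97 (SE 0.25). For FOS the sum was 0.22 and the excess 3.54 (SE 0.48). The excess was 1.11 (SE 0.19) for JUND, 0.92 (SE 0.23) for ATF3, 0.67 (SE 0.17) for JUNB and 0.19 (SE 0.23) for FOSL1, so FOSL1 lay within 1 SE of additivity. By the interaction term 5 of 6 were called above the sum, all but FOSL1, beside 10.7% of all genes (6.84% without the filter). That count rests on the 4SU+UVA libraries that the choice of the family had used, so it is a description and not a test. The median excess of the 6 was 1.01, beside 0.02 over all genes.

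The members changed places in the order of density. With 4SU+UVA, JUN led at 349 RPKM, followed by JUND at 70.8, FOSL1 at 68.8, ATF3 at 50.8, JUNB at 30.9, FOS at 24.7, FOSB at 1.14 and FOSL2 at 0.418. There JUND overlapped with FOSL1 and JUNB with FOS, and the other neighbours did not. The place of ATF3 depends on its short listed transcript, since in RPM, the same scale without division by length, it had 22.3 to 26.8 with 4SU+UVA, under the 49.0 to 67.3 RPM of JUNB. With UVA alone FOSL1 led at 58.5 RPKM. ATF3 at 22.5, JUNB at 20.9 and JUND at 19.7 followed with overlapping libraries, then JUN at 10.5, FOS at 1.83, and FOSL2 at 0.401 and FOSB at 0.214, which overlapped. With 4SU alone FOSL1 at 31.8, JUND at 23.1 and JUNB at 20.1 RPKM overlapped as neighbours at the top. ATF3 at 14.2 and JUN at 6.04 came next, and FOS at 1.22 overlapped with FOSL2 at 0.495, above FOSB at 0.167. In untreated cells FOSL1 led at 30.4 RPKM, followed by JUNB at 21.9, JUND at 14.1, ATF3 at 12.2, JUN at 6.04, FOS at 1.46, FOSL2 at 0.484 and FOSB at 0.305. Among neighbours in that order, JUND overlapped with ATF3 and FOSL2 with FOSB. The place of FOSL1 also depends on its listed transcript of 1200 nt. In untreated cells it had 29.1 to 41.3 RPM, overlapping JUNB at 39.4 to 40.7. With 4SU alone it had 28.6 to 45.6 RPM, overlapping JUND at 39.0 to 48.8. With 4SU+UVA it had 75.1 to 88.4 RPM, under JUND at 105 to 165. With UVA alone its 59.4 to 79.2 RPM stayed above JUND at 36.0 to 41.7.

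Summed over the 8 genes, density was 597 ± 118 RPKM with 4SU+UVA, 134 ± 12.7 RPKM with UVA, 97.2 ± 9.76 RPKM with 4SU and 86.9 ± 5.74 RPKM in untreated cells (SD, n = 3 each). JUN made up 58.1 ± 3.47% of that sum with 4SU+UVA, against 6.98 ± 1.25% in untreated cells. FOSL1 made up 11.7 ± 1.67% with 4SU+UVA, 43.4 ± 2.54% with UVA, 32.5 ± 4.57% with 4SU and 34.9 ± 4.65% in untreated cells. The share of JUNB was 5.29 ± 1.09% with 4SU+UVA and 25.3 ± 1.62% in untreated cells, a lower share although its own density was higher. Without JUN, the other 7 genes summed to 248 ± 31.1 RPKM with 4SU+UVA, 124 ± 11.2 RPKM with UVA and 80.9 ± 5.97 RPKM in untreated cells. Not divided by length, the family took 1496 ± 336 RPM with 4SU+UVA and 136 ± 5.18 RPM in untreated cells.

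**Figure D3:**
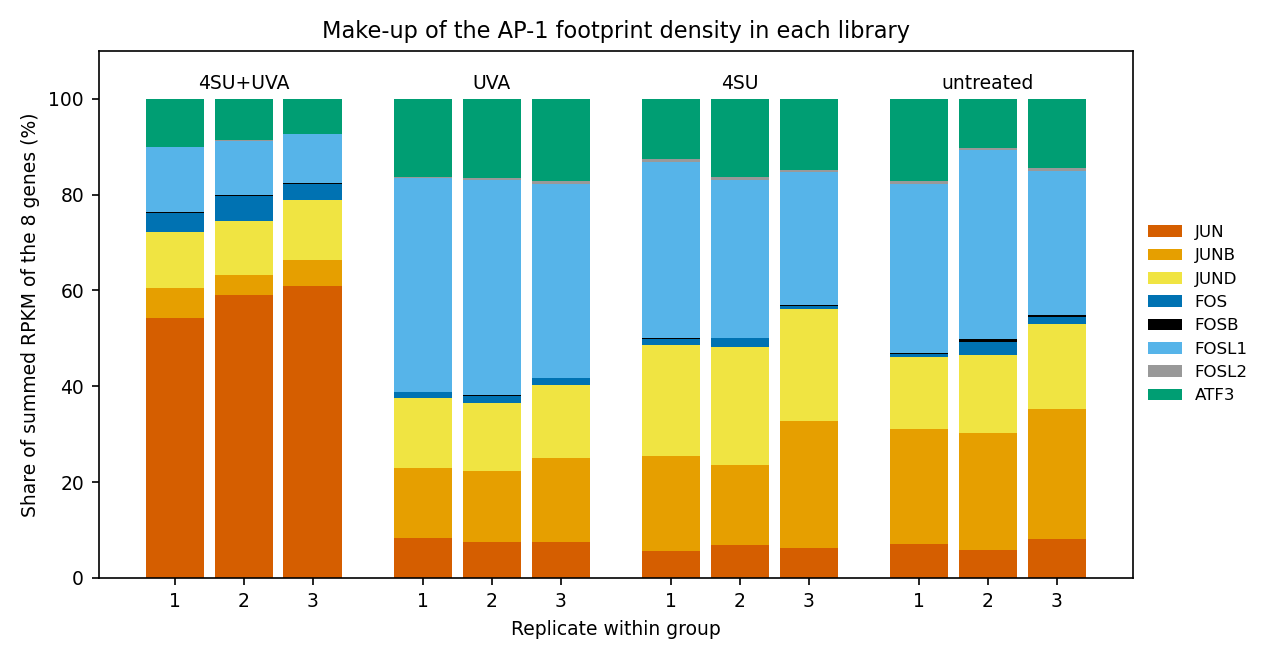
Share of each gene in the summed RPKM of the 8 AP-1 genes, in percent, for each library (replicates 1 to 3 of 4SU+UVA, UVA, 4SU and untreated cells). JUN fills 58.1% on average with 4SU+UVA and 6.98% in untreated cells, and FOSL1 is the largest part on average in the 3 other groups, at 43.4% with UVA. Shares of RPKM depend on the length of the transcript listed for each gene.

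Replicates of the combined treatment were not alike. Of the 8 members, 6 had their lowest 4SU+UVA value in replicate 1, the deepest of the 3 libraries at 5526950 reads. The share of all genes lowest in that replicate was not counted, so this need not be particular to the family. JUN there was at 251 RPKM, against 379 and 418 RPKM in replicates 2 and 3, a coefficient of variation of 25.0%. JUNB was lowest in replicate 2 and FOSL2 in replicate 3. Leaving out replicate 1 gave a log2 change of JUN of 5.94, the upper end of a range of 5.57 to 5.94 over the 12 libraries left out in turn. The part of depth in this was not tested.

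**Figure D4:**
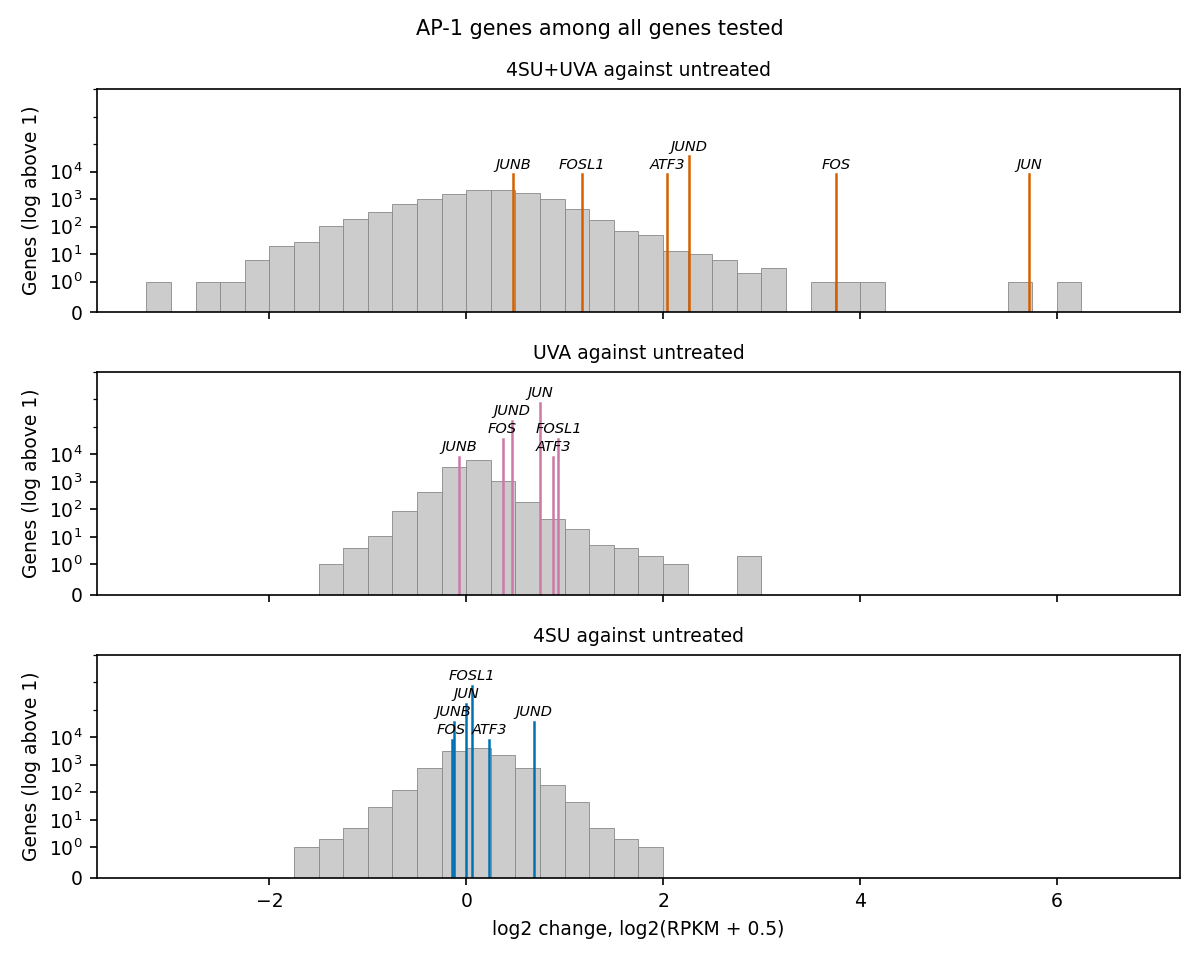
Log2 changes of all 11510 genes tested as grey histograms (bins of 0.25, gene number on a log axis above 1) for 4SU+UVA, UVA and 4SU against untreated cells, with the 6 AP-1 genes as labelled lines. With 4SU+UVA, JUN at 5.72 and FOS at 3.76 lie in the sparse right tail and JUNB at 0.48 near the centre. With 4SU alone JUND, at 0.69, lies farthest right of the 6.

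Other genes with a profile like that of JUN, FOS or ATF3 were looked for among the 25 genes with a mean of at least 5 RPKM and a log2 difference of at least 2 in size between 4SU+UVA and untreated cells, 17 of them higher with 4SU+UVA. The closest to JUN and to FOS over the 12 libraries was ENSG00000120738.8 (Pearson r = 0.996 and 0.974), at 272 ± 80.6 RPKM with 4SU+UVA and 3.52 ± 0.435 RPKM in untreated cells (SD, n = 3 each). The closest to ATF3 was ENSG00000120129.6 (r = 0.939), at 43.3 ± 8.15 RPKM with 4SU+UVA, 14.6 ± 0.229 RPKM with UVA and 10.1 ± 1.28 RPKM in untreated cells. Of the 5 closest genes of JUN, 4 were also among the 5 closest of FOS and 4 among those of ATF3. Since the 3 4SU+UVA libraries stand apart from the other 9, r mostly reflects that one split, and it describes these libraries only.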

How the data were processed

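The 12 footprint libraries of HAP1 cells were grouped by the treatment in the sample titles. The authors deposited 1 table of RPKM values with 1 transcript per gene. STAR 2.7.10a and the build hg38 are named in the submitters' processing notes. How reads were counted, and on which annotation, is not given in the sources used.

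The 8 members, the lists and the tests were chosen with earlier results of these data known. The steps between RPKM values gave back each library's total, each transcript's length and the reads behind a value, for all 15937 genes with a read (tolerance 0.001 reads). Simulated data returned 12 of 12 totals and the reads of 99.88% of 13932 genes. Recovered reads were used for depth and for read ratios.

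The main test was limma 3.58.1 (R 4.3.3, eBayes with trend) on log2(RPKM + 0.5), for the 11510 genes that reached 1 RPKM in 3 or more libraries. One model of 4 group means gave 6 contrasts, two-sided, with Benjamini-Hochberg adjustment over all genes and a threshold of 0.05. With 200 genes changed in simulated data, 4SU+UVA against untreated recovered 35.0% of 1.5-fold, 81.0% of 2-fold and 96.5% of 4-fold changes. The simulation gave all genes the same spread beyond read counting and left the other genes unchanged. In the data 6796 genes were called in that comparison and the spread differed by gene, so these shares need not hold there.

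Named genes were the 8 members and the genes closest to JUN, FOS and ATF3 by Pearson r. Members were named by the identifiers given for the family. The gene table used here pairs no Ensembl identifier with a symbol, so 5 lists of AP-1 kinases, regulators, partners, turnover factors and targets, and the markers of HAP1 and other cell types, matched 0 genes and were not analysed here. Other genes are given by identifier.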

Additional observations from a re-analysis of the deposited data

Results flagged for a closer look

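The UVA effect in cells with 4SU was larger than the UVA effect without 4SU by the interaction term of the fit across all genes for JUN, by 4.97 on the log2 scale, for FOS, by 3.54, for JUND, by 1.11, for ATF3, by 0.92, and for JUNB, by 0.67 (3 libraries per group). By that term 10.7% of all genes were called higher. All 3 4SU+UVA libraries lay above all 3 4SU libraries for each of these genes. The same was true of FOSL1, whose interaction term was 0.19 (SE 0.23), so the lack of overlap does not set these genes apart. The share of all genes without overlap between 4SU+UVA and 4SU is not given here. The family was chosen with the values of its members in view, so they are a description.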

How the results depend on the processing

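Each log2 change of the 6 members tested was recomputed under 20 alternatives, 720 values in all, of which 695 kept direction and side of the threshold, 12 lost a call, 1 gained one and 12 changed sign. The lost calls are those of FOSL1 and ATF3 with UVA alone. No value of 4SU+UVA against any other group changed direction or call. Signs turned for changes near 0 with 4SU alone: JUN at -0.13 under median centring, -0.16 under quantile normalisation and -5.2e-05 with a pseudocount of 1 (-0.12 to 0.081 with 1 library left out), FOSL1 at -0.072 and -0.014 under the same scalings (-0.10 to 0.25), and FOS (-0.49 to 0.22). The FOSL1 interaction ran from -0.0072 to 0.34 with 1 library left out. The causes were not tested.

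Over all genes, UVA alone called 75, against 45 without the filter, 42 under quantile normalisation and 27 without the variance trend, and 52 to 81 with 1 library left out. 4SU alone called 1654, and 728 to 2049 with 1 library left out (728 and 773 without 4SU replicates 1 and 2, 871 and 869 without untreated replicates 2 and 3). The higher share of calls moved with scaling, at 68.8% with the deposited one, 51.8% under median centring and 50.9% under quantile normalisation for 4SU+UVA against untreated, 78.3%, 37.2% and 57.7% for 4SU, 42.7%, 28.4% and 52.4% for UVA, and 63.7%, 53.9% and 50.7% for 4SU+UVA against UVA. The replicate block gave 6818 calls in place of 6796 for 4SU+UVA against untreated and changed no call of a member. Deviations of same-numbered libraries correlated at -0.05 to 0.07 in 18 pairs, so no pairing by number was seen across all genes. Whether single genes follow the replicate numbers was not tested. With the replicate block the limma adjusted p for UVA alone moved from 0.0096 to 0.0015 for FOSL1 and from 0.013 to 0.026 for ATF3. The gene list alternatives were not run. Low read numbers limit FOSB, FOSL2 and the FOS values outside 4SU+UVA.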

Other observations

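Within the other treated groups 1 library was often the lowest across the family. Of the 8 members, 6 had their lowest 4SU value in replicate 3, where FOSL1 was at 23.8 RPKM against 38.001 and 33.7 RPKM in replicates 1 and 2, and 5 had their lowest UVA value in replicate 3, where FOSL1 was at 49.5 RPKM against 66.0 and 59.9 RPKM. The shares of all genes lowest in these libraries were not counted, so neither count need be particular to the family. FOSB and FOSL2 enter both counts with few reads.

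The promoters of JUNB and of the other RefSeq start of ATF3, at chr1:212614768-212615067, held none of the AP-1 or cyclic AMP response motifs searched, and that of FOSB held TGACGTAA, the reverse of a TTACNTCA match, at -60 to -53.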
